A study of Homo sapiens with 6 samples.

Results

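Translation initiation, elongation, termination and recycling factors were followed through their mRNAs in a human line of embryonic kidney origin, HEK293, after depletion of the RNA helicase MOV10. The genes were taken by symbol: rows whose gene name begins with EIF1 to EIF6, EEF1 or EEF2, or is ETF1, GSPT1, GSPT2 or ABCE1. The rule found 47 of the 7682 genes in the table, and no measured value entered it. ETF1 had no row and was not analysed here. Nor had EIF2B3, EIF3A, EIF3B, EIF4A1, EIF4A2, EIF4G3 and EIF5B, among others, so the complexes below are covered only in part. EIF2C2, the older symbol of the Argonaute protein AGO2, fits the letters of the rule but is no translation factor. That leaves 46 factors and related genes, such as the EIF2 kinases and the exon junction protein EIF4A3. Counts over 47 and 43 members below include EIF2C2. One set of cells received siRNA against MOV10 and the other a mock transfection, and both were given 700 µM of the uridine analogue 4-thiouridine (4sU) over 60 min. Poly(A)+ libraries were made from total RNA, from the 4sU-labelled fraction, which holds RNA made during the labelling, and from the unlabelled flow-through. Each fraction had 2 siRNA and 2 mock columns, and the authors derived 2 columns of half-lives, in minutes, for each condition. Whether the columns of a group come from separate cultures is not stated in the sources used here, so p-values reflect the spread among these columns, which may be technical. The authors' normalised expression values carry no named unit and are at least 1.00 throughout, so depth is unknown. They are not compared between genes below, while half-lives are.

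Initiation begins when a ternary complex of EIF2, GTP and the initiator tRNA joins the small ribosomal subunit, helped by EIF1, EIF1A, EIF5 and the large scaffold EIF3. EIF4E holds the mRNA cap, the scaffold EIF4G ties cap to ribosome, and EIF4E-binding proteins block that bridge. EIF2B reloads EIF2 with GTP, and kinases that phosphorylate EIF2 under stress stop the reloading. EEF1A brings aminoacyl-tRNA to the ribosome, EEF2 moves the ribosome along, the release factor partner GSPT1 (eRF3a) acts at stop codons, and ABCE1 splits the ribosome afterwards. Many of these mRNAs carry a pyrimidine run at their 5' end, a TOP sequence, through which growth signalling controls their own translation.

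MOV10 total RNA was 3.53 and 3.64 in the siRNA columns, against 13.1 and 14.6 in the mock columns, so the targeted transcript was lower in both siRNA columns. Of 7 markers listed for HEK293 cells, VIM, INA and NEFL had rows, with a summed total RNA value of 264 and 263 in siRNA and 262 and 298 in mock. Of 9 markers of other cell types, none had a row. KRT8, KRT18, NEFM and STMN1 of the HEK293 list had none either, so a missing row does not show absence of a transcript. Over genes, replicate columns correlated with a Spearman rho of 0.981 to 0.996. The genes compared were the 6064 with a mean total RNA value of at least 5 in both conditions, among them 43 of the 47 members. Log2 changes are siRNA over mock, relative to the median gene of each column, with 1 added to expression values first. Calls are those of limma at a Benjamini-Hochberg adjusted p under 0.05 over the 6064 genes. Where groups are said not to overlap, each holds only 2 columns, and the share of all genes without overlap was not counted. Before that centring, the median gene's half-life was 0.20 log2 units higher in siRNA in the deposited half-lives, and its change was -0.11 once half-lives were recomputed from the 3 fractions. The median gene also shifted by 0.14 in labelled RNA before centring, and by -0.01 in total RNA.

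After MOV10 siRNA the mRNAs of EIF6 and GSPT1 had shorter half-lives, and that of EIF5 passed the threshold narrowly. No member rose in half-life. The 3 that fell are 3 of the 43 members tested, where 4.27% of all genes fell and 1.88% rose. At an unadjusted p under 0.05 there were 9 members, of which 4 were higher and 5 lower; these are 20.9% of the 43, below the 24.3% of all genes at that level. In total RNA, 7 members rose and 5 fell, against 12.9% and 14.3% of all genes. In labelled RNA, 4 rose and 4 fell, where 9.88% of all genes rose and 11.5% fell. In the flow-through, 20 members rose and 6 fell, where 31.7% of all genes rose and 26.8% fell. The median change of the 43 members was 0.04 in half-life and 0.06 in total RNA, beside 0.00 and 0.01 for all genes. It was 0.10 in labelled RNA and 0.12 in the flow-through, beside 0.01 and 0.03 for all genes. These are bulk libraries, in which less of a transcript per cell and fewer cells carrying it cannot be told apart. The 4 measures come from the same libraries, and the half-lives were computed from them, so they are not independent readings of a gene.

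**Figure D1:**
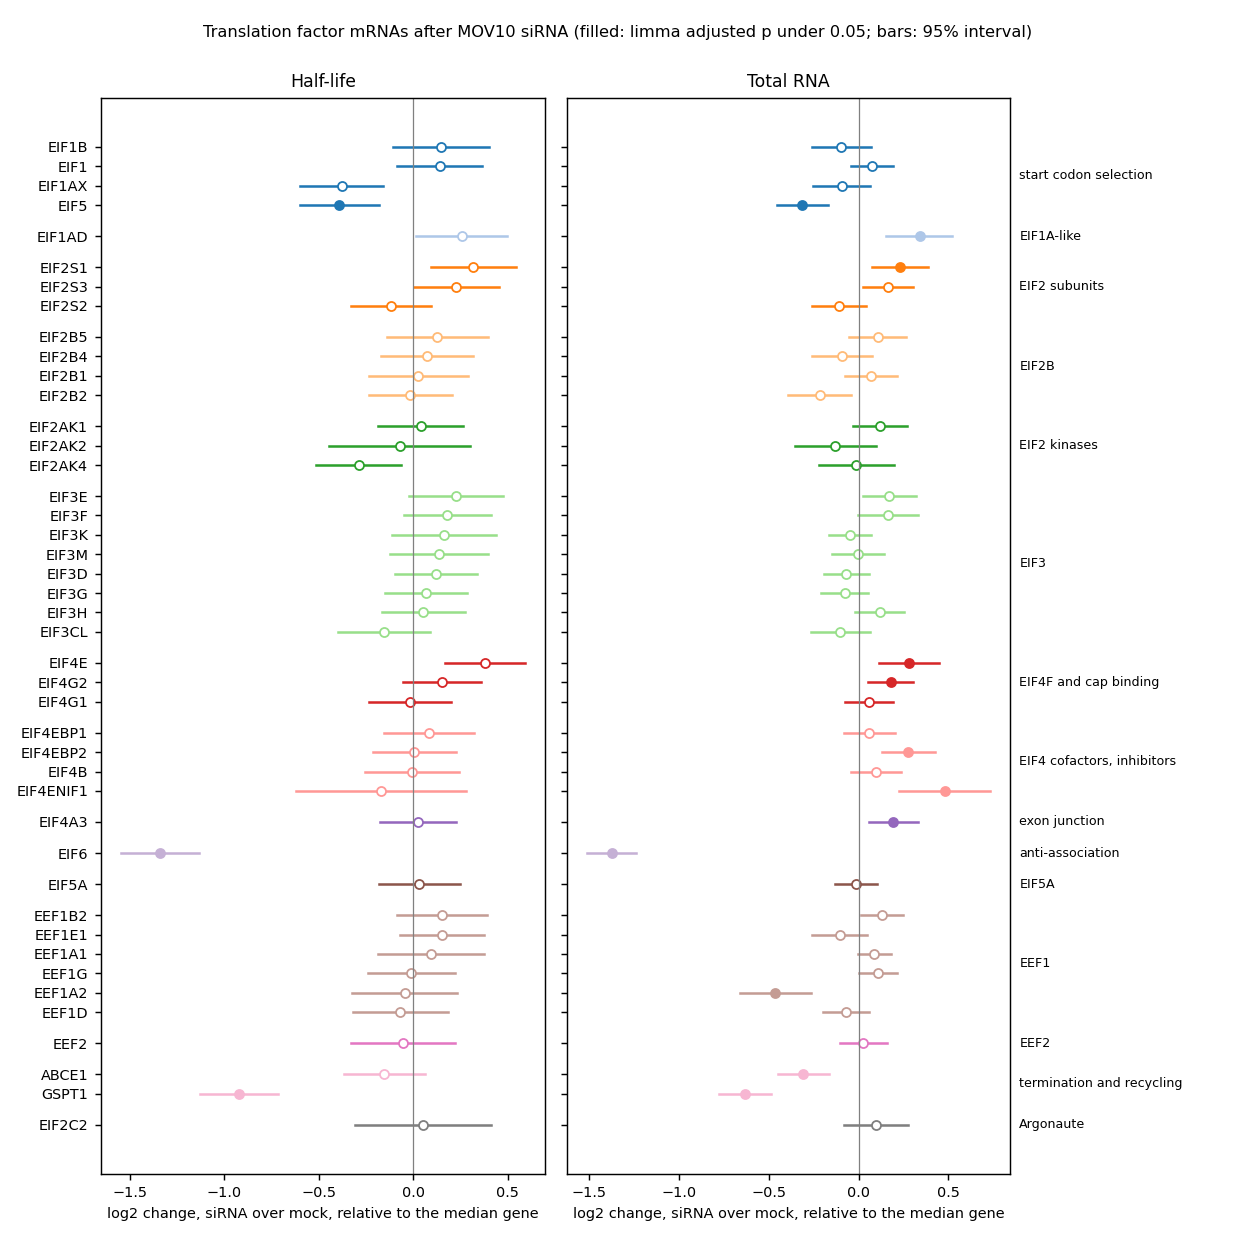
Log2 change (siRNA over mock, relative to the median gene) of the half-life (left) and of total RNA (right) for the 43 members past the expression minimum, grouped by complex. Points are limma estimates, bars their 95% intervals, and filled points passed an adjusted p of 0.05; EIF6 lies farthest below 0 in both panels, at -1.34 and -1.38, and GSPT1 next in both.

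The complexes differed in how long their mRNAs lived. The median half-life of the 47 members was 948 and 1217 min in the siRNA columns and 913 and 935 min in the mock columns. For all genes past the minimum it was 764 and 1030 min in siRNA, against 742 and 810 min in mock. By the mean of the mock columns, 29 of the 47 members lived longer than the median gene at 777 min. The EEF1 genes, 5 that form the elongation complex or its isoform and EEF1E1 of the tRNA synthetase complex, were the longest lived as a group: all 6 lay above the median gene in mock, with a median of 1748 and 2537 min in siRNA and 1718 and 1998 min in mock. The EIF3 scaffold followed, with 7 of the 8 subunits that had a row above the median gene. Their median was 1275 and 1734 min in siRNA and 1156 and 1311 min in mock. At the other end stood the start codon factors, with 346 and 426 min in siRNA and 288 and 338 min in mock. EIF1, EIF1B and EIF5 lay between 300 and 316 min in mock, while EIF1AX, the small-subunit scanning factor that works beside them, stood at 1049 min. Within the EIF2 trimer the mock half-lives ran from 433 min for the beta subunit EIF2S2 to 1220 min for the gamma subunit EIF2S3. EIF2B spread likewise, from 411 min for EIF2B2 to 1097 min for EIF2B4, with EIF2B1 at 1035 min and EIF2B5 at 1045 min. The 2 longest lived members in mock were EIF3K at 3129 min and EEF1D at 2839 min, above 99.6% and 99.0% of all genes. The shortest were GSPT2 at 124 min and EIF1AD at 131 min. Levels are given as a description, with no test between complexes.

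**Figure D2:**
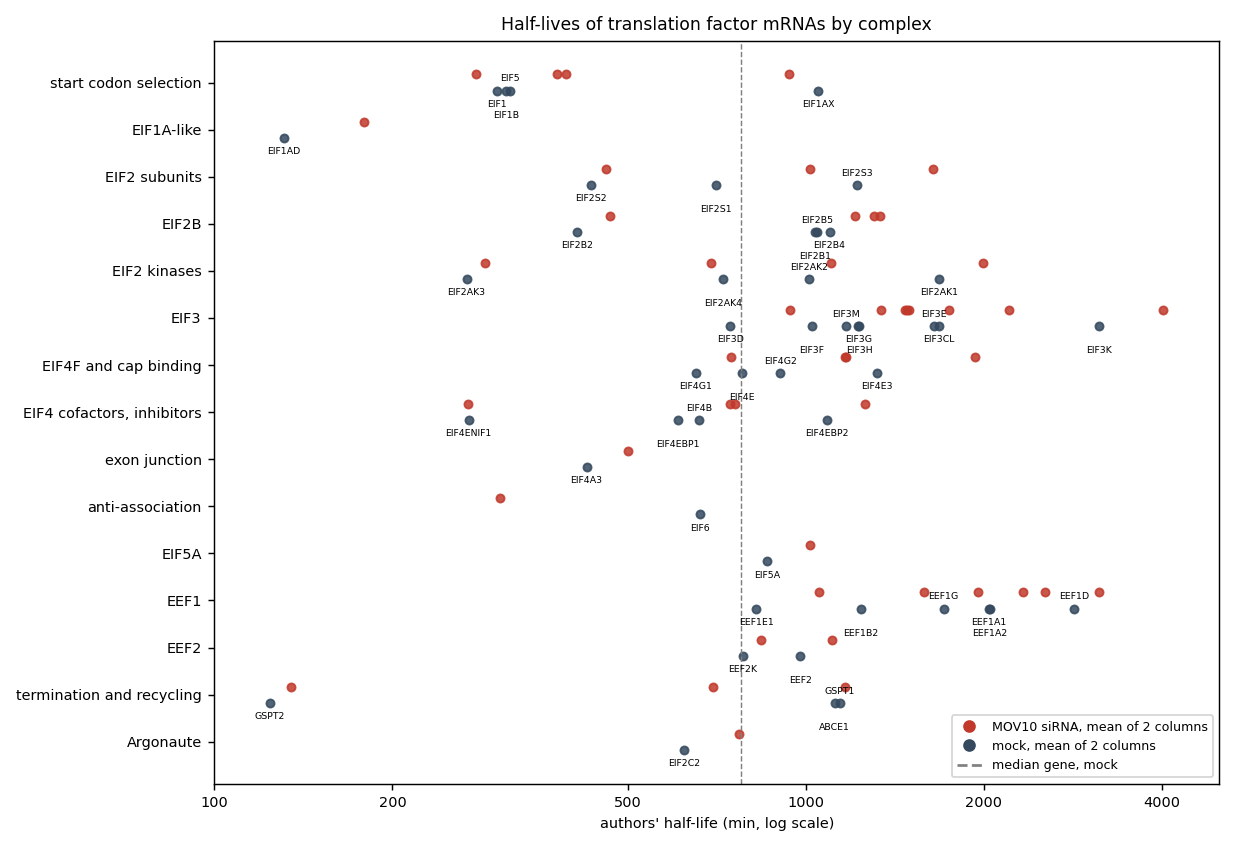
Half-life in minutes on a log axis for each of the 47 members, grouped by complex, siRNA above mock; each point is the mean of 2 columns, and the dashed line is the median gene in mock (777 min). EEF1 and EIF3 subunits lie mostly to the right of the line and EIF1, EIF1B and EIF5 to the left, and the siRNA points of EIF6 and GSPT1 lie left of their mock points.

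EIF6, which keeps the large ribosomal subunit from joining the small one too early and is needed to make that subunit, changed most among the factors. Its half-life was 252 and 355 min in the siRNA columns, against 646 and 676 min in the mock columns. That is 2.53-fold shorter relative to the median gene (log2 change -1.34, 95% interval -1.55 to -1.13, limma, Benjamini-Hochberg adjusted p = 0.00364). Total EIF6 RNA was 73.9 and 70.4 in siRNA and 179 and 204 in mock, a 2.66-fold lower mean. The groups were far apart in half-life and in total RNA, with siRNA lower (log2 change of total RNA -1.38 with an SE of 0.06, limma, Benjamini-Hochberg adjusted p = 1.44e-08). Flow-through EIF6 RNA was 108 and 113 in siRNA, against 266 and 259 in mock (log2 change -1.22, limma, Benjamini-Hochberg adjusted p = 3.34e-05). Labelled EIF6 RNA did not share that direction: it was 118 and 110 in siRNA, against 90.6 and 86.2 in mock, and missed the threshold (log2 change 0.23, limma, Benjamini-Hochberg adjusted p = 0.0749).

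GSPT1, the GTPase that works with the release factor ETF1 at stop codons, showed the same ordering of fractions at a smaller size. Its half-life was 585 and 810 min in siRNA, against 1085 and 1197 min in mock, 1.90-fold shorter relative to the median gene. The log2 change was -0.92 (95% interval -1.13 to -0.72, limma, Benjamini-Hochberg adjusted p = 0.00524), and the groups did not overlap. Total GSPT1 RNA was 36.9 and 36.8 in siRNA, against 58.0 and 58.9 in mock (log2 change -0.63, limma, Benjamini-Hochberg adjusted p = 1.79e-05). Flow-through RNA was 51.0 and 50.1 in siRNA and 83.3 and 81.5 in mock (log2 change -0.68, limma, Benjamini-Hochberg adjusted p = 0.000167). Labelled RNA was 37.7 and 37.4 in siRNA and 31.4 and 29.2 in mock, higher in both siRNA columns but short of the threshold (log2 change 0.17, limma, Benjamini-Hochberg adjusted p = 0.144). Without centring, the half-life changes of EIF6 and GSPT1 were -1.14 and -0.73 and neither passed (limma, Benjamini-Hochberg adjusted p = 0.122 and 0.784).

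ABCE1, the ATPase that separates ribosomal subunits after termination, was lower in all 3 RNA fractions without a called change in half-life. Total ABCE1 RNA was 48.5 and 46.7 in siRNA, against 59.5 and 60.4 in mock (log2 change -0.31, limma, Benjamini-Hochberg adjusted p = 0.00399). Labelled ABCE1 RNA was 26.3 and 25.6 in siRNA and 29.6 and 27.6 in mock (log2 change -0.27, limma, Benjamini-Hochberg adjusted p = 0.0268), and this labelled call was lost when either mock column or siRNA replicate 2 was left out (limma, Benjamini-Hochberg adjusted p up to 0.0957). Neither fraction's groups overlapped. Flow-through ABCE1 RNA was 65.2 and 62.8 in siRNA and 84.2 and 85.1 in mock (log2 change -0.38, limma, Benjamini-Hochberg adjusted p = 0.000923). The half-life of ABCE1 was 976 and 1352 min in siRNA and 1050 and 1187 min in mock, with overlapping groups (log2 change -0.15, limma, Benjamini-Hochberg adjusted p = 0.335). Without centring the labelled change was -0.14 and not called (limma, Benjamini-Hochberg adjusted p = 0.316). The total RNA call was lost without siRNA replicate 2 (limma, Benjamini-Hochberg adjusted p = 0.0622), with the change between -0.34 and -0.28 over the 4 omissions.

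**Figure D3:**
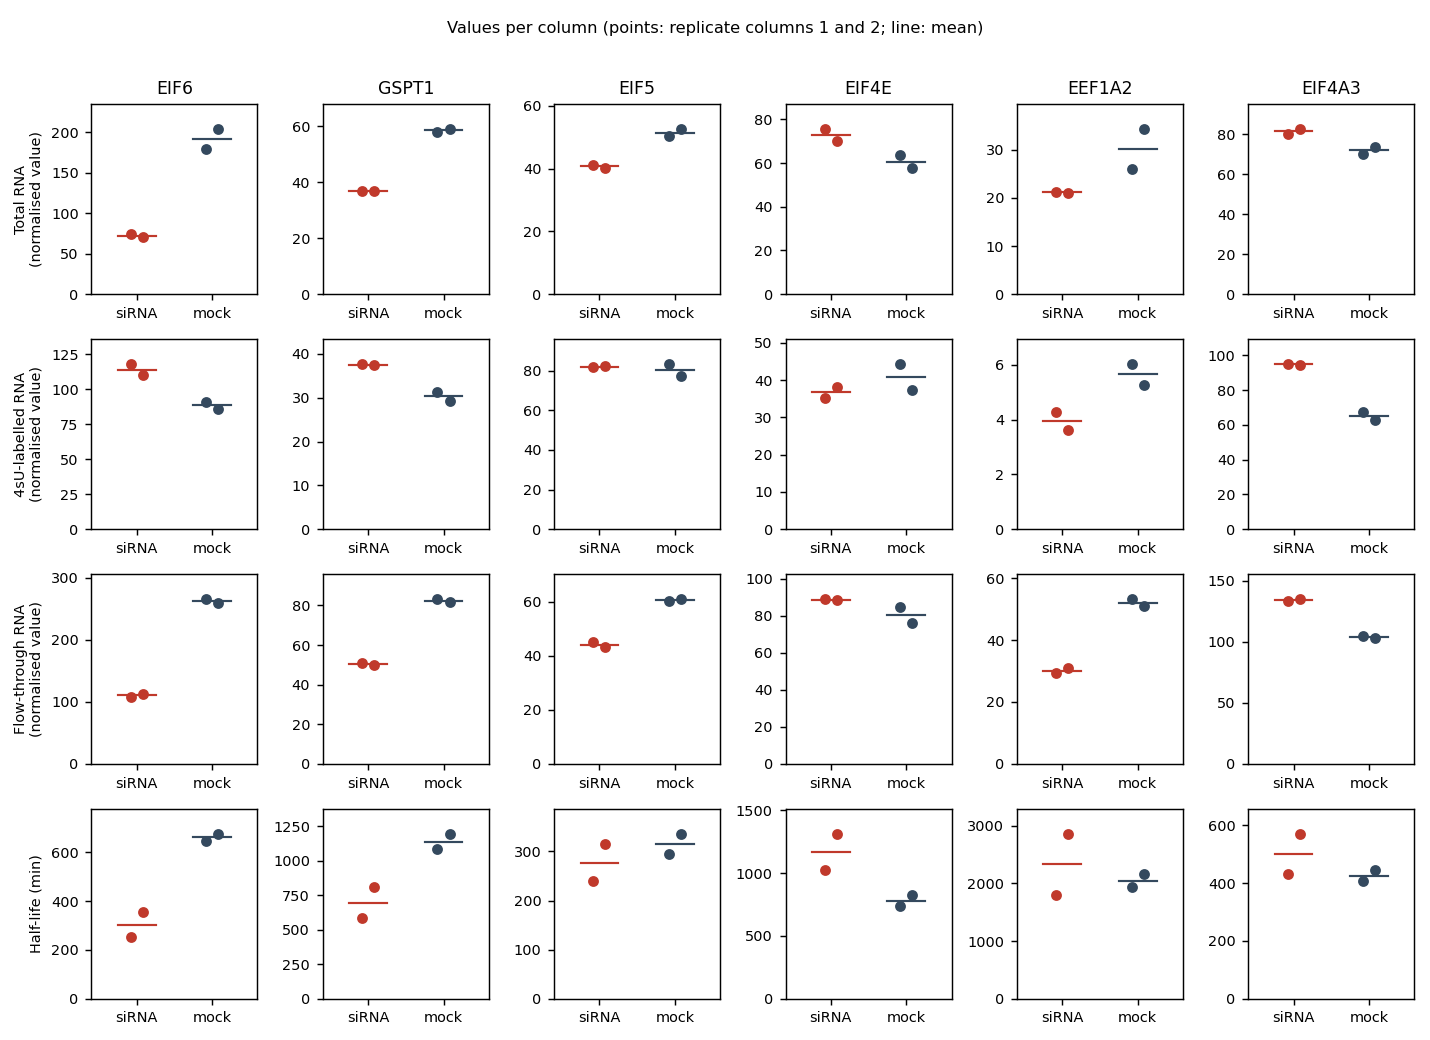
Deposited values of EIF6, GSPT1, EIF5, EIF4E, EEF1A2 and EIF4A3 in each column, siRNA left of mock, for total, labelled and flow-through RNA (normalised signal) and half-life (min). For EIF6 and GSPT1 the total, flow-through and half-life points are lower in siRNA and the labelled points are higher; EEF1A2 is lower in all 3 RNA fractions and overlaps in half-life.

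The 7-base sequence TACTGCA is shown here because an earlier search of these data in 3' UTRs named it. EIF6 carries it in a 3' UTR of 286 bases. The sequence came from these same half-lives, so its counts and its match in EIF6 describe them and are no independent evidence. It was looked for on the mRNA strand only, in the longest 3' UTR of at least 20 bases that GENCODE v29 gives each gene on GRCh38. The authors aligned to hg18, and no coordinate of theirs is used. Of the 42 members past the minimum with such a UTR, 6 held it (14.3%), as did 665 of 5664 genes (11.7%). The matches of these 6, with 11 bases on each side and TACTGCA in capitals, were all within annotated 3' UTR exons.
EIF6 (chr20:35279007-35279035, minus strand): ggatctatcatTACTGCAaaaacctgctc
ABCE1 (chr4:145128099-145128127, plus strand): ggaagattatcTACTGCAaaacaccactg
EIF1AX (chrX:20124544-20124572, minus strand): cagatacaaacTACTGCAattagaaaata
EIF2B1 (chr12:123620989-123621017, minus strand): tgttgcatcaaTACTGCAagctgaccagg
EIF2B2 (chr14:75010169-75010197, plus strand): catctcagtccTACTGCAtctgatctcag
EIF2AK2 (chr2:37104361-37104389, minus strand): catgatcatgtTACTGCAttccagcctgg

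Among these 6, EIF6 alone was called lower in half-life, and EIF6 and ABCE1 in total RNA. The half-life changes of the others were -0.38 for EIF1AX, -0.15 for ABCE1, -0.07 for EIF2AK2, -0.02 for EIF2B2 and 0.03 for EIF2B1. Of the 36 members without a match, 2 were called lower in half-life, GSPT1 and EIF5, although their 3' UTRs are long, at 4991 and 3973 bases. Over all genes, 14.6% of those with a match and 3.08% of those without were called lower in half-life, and in total RNA the shares were 27.5% and 12.7%. The median 3' UTR was 3198 bases with and 1212 bases without. The part of the match or of UTR length in any member's change was not tested. No source used here gives the siRNA's sequence, and siRNA was set against mock transfection. Loss of MOV10 and effects of the siRNA's own sequence on other transcripts, EIF6 included, therefore cannot be told apart.

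Among the start codon factors, EIF5 fell, and the other 3 had no call in half-life or total RNA. EIF5 is the GTPase activator through which EIF2 lets go of the initiator tRNA. Its half-life was 239 and 316 min in siRNA and 295 and 336 min in mock, so the deposited values overlap, and its call exists only relative to the median gene (log2 change -0.39 with an SE of 0.09, limma, Benjamini-Hochberg adjusted p = 0.0497). That call was lost when any 1 column was left out (limma, Benjamini-Hochberg adjusted p from 0.0962 to 0.235), and was -0.29 in recomputed half-lives (limma, Benjamini-Hochberg adjusted p = 0.0908). Total EIF5 RNA was 41.2 and 40.2 in siRNA, against 50.3 and 52.6 in mock, with no overlap (log2 change -0.31, limma, Benjamini-Hochberg adjusted p = 0.00349). Flow-through EIF5 RNA was 44.9 and 43.1 in siRNA, against 60.3 and 61.0 in mock, lower in both siRNA columns (log2 change -0.44, limma, Benjamini-Hochberg adjusted p = 0.000742). In labelled RNA the EIF5 groups overlapped, at 81.8 and 82.7 in siRNA and 83.5 and 77.3 in mock. EIF1B, a close relative of the start codon gatekeeper EIF1, had the highest half-life change of the group at 0.15, with 362 and 425 min in siRNA and 282 and 339 min in mock. Its labelled RNA (-0.35) and flow-through RNA (-0.25) fell, while its total RNA was 53.1 and 50.8 in siRNA and 59.0 and 53.8 in mock without a call. The labelled call of EIF1B was lost without mock replicate 1 and without centring (-0.22, limma, Benjamini-Hochberg adjusted p = 0.139). EIF1 itself rose in the flow-through by 0.12, a call lost without mock replicate 1 or without siRNA replicate 1, and had no call elsewhere. EIF1AX had a half-life of 792 and 1078 min in siRNA and 1047 and 1052 min in mock, a change of -0.38 that missed the threshold (limma, Benjamini-Hochberg adjusted p = 0.0627). EIF1AD, named for its EIF1A-like domain and grouped apart, rose in total RNA, with 10.9 and 10.1 in siRNA against 8.19 and 8.29 in mock (log2 change 0.34, limma, Benjamini-Hochberg adjusted p = 0.01), a call lost without mock replicate 2 or without siRNA replicate 1 (adjusted p up to 0.121). Its half-life was 158 and 200 min in siRNA, above the 119 and 143 min in mock, with no call (log2 change 0.26, limma, Benjamini-Hochberg adjusted p = 0.184). EIF1AD also rose in the flow-through, where 31.7% of all genes did, with 10.6 and 10.8 in siRNA against 7.53 and 8.76 in mock (log2 change 0.38, limma, Benjamini-Hochberg adjusted p = 0.0117). With 1 column left out, that flow-through change ran from 0.27 to 0.48.

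For EIF2 and the factors that control it, the alpha subunit EIF2S1, whose phosphorylation by the stress kinases holds back initiation, rose in total RNA, and no half-life change passed. Total EIF2S1 RNA was 38.3 and 36.0 in siRNA, against 32.3 and 31.7 in mock, with no overlap (log2 change 0.23, limma, Benjamini-Hochberg adjusted p = 0.0309). This call was lost without centring (0.21, limma, Benjamini-Hochberg adjusted p = 0.0841), without mock replicate 2 and without either siRNA column (limma, Benjamini-Hochberg adjusted p up to 0.299). Its half-life was 848 and 1184 min in siRNA, above the 639 and 772 min in mock, the highest change of the trimer without reaching the threshold (log2 change 0.32, limma, Benjamini-Hochberg adjusted p = 0.101). The lowest was that of EIF2S2, with 402 and 516 min in siRNA and 401 and 465 min in mock (-0.12). In the flow-through, where 31.7% of all genes rose, EIF2S1 (0.33) and EIF2S3 (0.13) did so, 2 of 3 subunits. However, EIF2S3 did not pass without either mock column or without siRNA replicate 1. All 4 EIF2B subunits measured lay without a call in half-life, total and labelled RNA. The ends of their half-life range were EIF2B5, the catalytic subunit, with 1151 and 1458 min in siRNA and 913 and 1177 min in mock (0.13), and EIF2B2, with 419 and 514 min in siRNA and 384 and 437 min in mock (-0.02). EIF2B5 was the one subunit to rise in the flow-through (0.29). Of the EIF2 kinases, the heme-regulated EIF2AK1 rose in the flow-through (0.27), and none of the 3 past the minimum had another call. EIF2AK1 also had the highest half-life change, 0.04, with 1700 and 2288 min in siRNA and 1589 and 1770 min in mock. EIF2AK4 (GCN2), the sensor of uncharged tRNA, had the lowest at -0.29, with 555 and 830 min in siRNA and 704 and 745 min in mock. The double-stranded RNA sensor EIF2AK2 (PKR) lay between them at -0.07.

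In the flow-through 7 of the 8 measured EIF3 subunits rose, where 31.7% of all genes did, while 0 rose or fell in half-life or total RNA by limma. At an unadjusted p under 0.05 there were 0 EIF3 subunits in half-life and 1 in total RNA, where 24.3% and 39.3% of all genes lay at that level. The 8 flow-through changes ran from 0.10 for EIF3F to 0.35 for EIF3E, with a median of 0.19 beside 0.03 for all genes, and all 8 were positive with centring, without it and after quantile normalisation, where EIF3K lost its call (0.03). EIF3E had flow-through values of 354 and 345 in siRNA, against 286 and 269 in mock (limma, Benjamini-Hochberg adjusted p = 0.000923). EIF3D, the subunit that can itself bind the cap, had 347 and 363 in siRNA, against 295 and 294 in mock (log2 change 0.29, limma, Benjamini-Hochberg adjusted p = 0.000908). In both genes each siRNA column lay above each mock column. EIF3CL, EIF3G, EIF3H, EIF3K and EIF3M rose by 0.15 to 0.21, where EIF3CL lost its call without mock replicate 1 or siRNA replicate 2 and EIF3G without mock replicate 2 or siRNA replicate 2, and EIF3F, the one without a call, had 69.7 and 69.7 in siRNA and 68.3 and 63.2 in mock.

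Total RNA of EIF3 showed no such order: 3 changes lay above the median gene and 5 below it, with a median of -0.03, and after quantile normalisation 5 lay above and 3 below. EIF3D total RNA was 200 and 207 in siRNA and 208 and 224 in mock, lower in siRNA where its flow-through was higher. Labelled EIF3D RNA was higher too, at 138 and 132 in siRNA, against 112 and 99.6 in mock, without a call (log2 change 0.22, limma, Benjamini-Hochberg adjusted p = 0.0833). For EIF3D both parts were thus higher as deposited while total RNA was not, so its values as normalised do not add up across fractions. The cause was not tested. The ratio of flow-through to total RNA, a comparison chosen after seeing these data, rose for 3 of the 43 members, where 5.41% of all genes rose and 3.4% fell. They were the guanine exchange subunit EEF1B2 (0.37), EIF3D (0.37) and EIF3CL (0.32), and none of the 3 was called without centring. With 1 column left out, EEF1B2 passed in 1 of the 4 omissions (without siRNA replicate 1) and the other 2 genes in none. In half-life 7 of the 8 EIF3 subunits lay above the median gene, with a median of 0.13, and EIF3CL lay below it. The highest was EIF3E, with 1980 and 2437 min in siRNA, against 1515 and 1779 min in mock (log2 change 0.23, limma, Benjamini-Hochberg adjusted p = 0.243). The lowest was EIF3CL, with 1426 and 2071 min in siRNA and 1534 and 1824 min in mock (log2 change -0.16, limma, Benjamini-Hochberg adjusted p = 0.398). EIF3CL is a near-identical copy of EIF3C, which had no row, so reads of the pair may have been assigned to either. EIF3CL was also the EIF3 subunit that rose in labelled RNA (0.32), with 52.2 and 52.5 in siRNA, against 39.0 and 36.7 in mock. In that fraction 7 of the 8 subunits lay above the median gene, with a median of 0.15, and EIF3F lay below it.

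**Figure D4:**
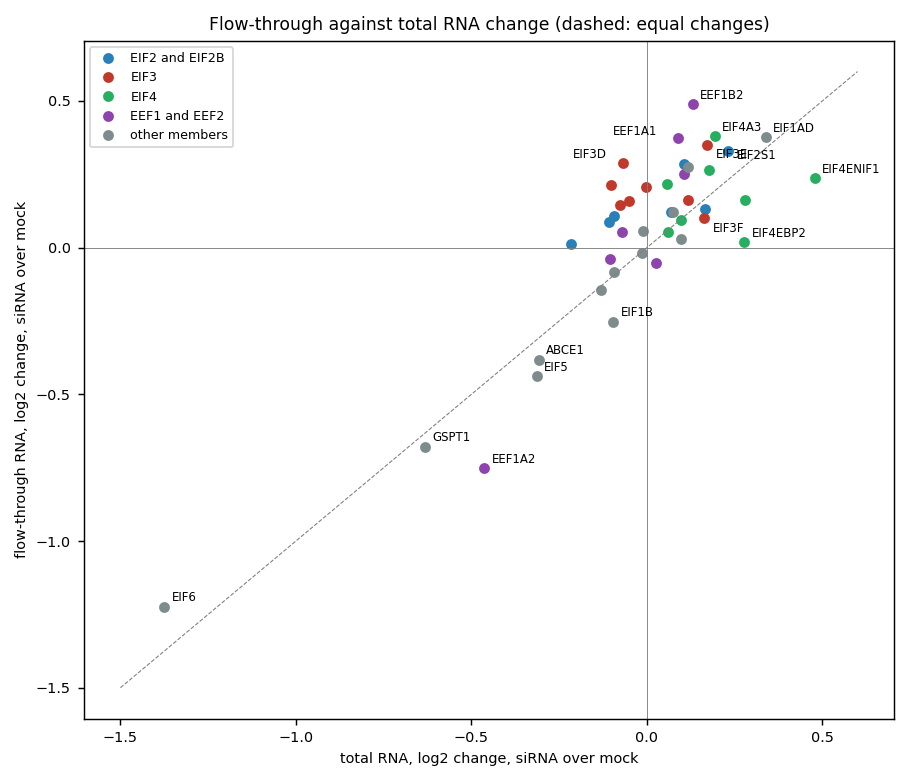
Log2 change of flow-through RNA against that of total RNA (both siRNA over mock, relative to the median gene) for the 43 members, with the dashed line where both are equal. EIF3 subunits and EEF1B2 lie mostly above the line, and EIF6 and GSPT1 stand apart at the lower left, close to it.

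In total RNA 5 of the 8 EIF4 genes past the minimum rose and none of the 8 fell, where 12.9% of all genes rose and 14.3% fell. The ninth, the cap-binding EIF4E3, lay below the minimum and fell when no minimum was set (log2 change -0.38, limma, Benjamini-Hochberg adjusted p = 0.0161). The 8 changes were positive with centring, without it and after quantile normalisation, with a median of 0.19 beside 0.01 for all genes. They were EIF4E and EIF4G2, of 3 cap-binding and scaffold genes, and EIF4EBP2 and EIF4ENIF1, of 4 cofactors and inhibitors. The other was EIF4A3, an exon junction protein counted here by its symbol. Without centring the count was 1, EIF4EBP2. When 1 column was left out it was 4 without mock replicate 1, 3 without mock replicate 2, and 1 without either siRNA replicate. By gene, EIF4E lost its call without mock replicate 2 or siRNA replicate 1, EIF4G2 and EIF4EBP2 without either siRNA column, and EIF4A3 without mock replicate 2 or either siRNA column. The highest adjusted p of these omissions was 0.366 (limma, Benjamini-Hochberg), for EIF4A3.

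Total RNA of the cap-binding protein EIF4E was 75.5 and 70.0 in siRNA, against 63.5 and 57.7 in mock (log2 change 0.28, limma, Benjamini-Hochberg adjusted p = 0.0168). The half-life of EIF4E was 1022 and 1314 min in siRNA, against 737 and 824 min in mock, again without overlap, and missed the threshold (log2 change 0.38, 95% interval 0.17 to 0.59, limma, Benjamini-Hochberg adjusted p = 0.0572). It passed in recomputed half-lives (log2 change 0.44, limma, Benjamini-Hochberg adjusted p = 0.0323). Labelled EIF4E RNA went the other way, at 35.2 and 38.2 in siRNA and 44.3 and 37.2 in mock, overlapping as deposited but called lower relative to the median gene (-0.28, limma, Benjamini-Hochberg adjusted p = 0.0373). That labelled call was lost without mock replicate 1, without siRNA replicate 1, without centring, without a trend, without a minimum and under quantile normalisation. EIF4G2 (DAP5), a scaffold relative that lacks the EIF4E-binding part, had 184 and 179 of total RNA in siRNA, against 156 and 169 in mock (log2 change 0.18, limma, Benjamini-Hochberg adjusted p = 0.036). The half-life of EIF4G2 was 993 and 1332 min in siRNA and 875 and 935 min in mock, without a call (0.15). The main scaffold EIF4G1 had no call in total RNA (0.06) and the lowest half-life change of the cap-binding factors, with 613 and 881 min in siRNA and 603 and 700 min in mock (-0.02). In the flow-through EIF4E (0.16), EIF4G1 (0.22) and EIF4G2 (0.26) rose, and of these EIF4E passed in 1 of the 4 omissions (without mock replicate 1).

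EIF4EBP2, a repressor that competes with EIF4G for EIF4E, had 41.7 and 40.8 of total RNA in siRNA, against 33.6 and 35.1 in mock, with no overlap (log2 change 0.28, limma, Benjamini-Hochberg adjusted p = 0.0085). Flow-through EIF4EBP2 RNA was 43.4 and 40.1 in siRNA and 42.2 and 41.1 in mock (0.02), and its half-life was 1086 and 1433 min in siRNA and 1071 and 1100 min in mock (0.01). EIF4EBP1, its relative, had the highest half-life change among cofactors and inhibitors, 0.08, with 639 and 847 min in siRNA and 623 and 592 min in mock. EIF4ENIF1 (4E-T), which carries EIF4E to the nucleus and to processing bodies, had 17.1 and 21.7 of total RNA in siRNA, against 11.8 and 15.9 in mock (log2 change 0.48, limma, Benjamini-Hochberg adjusted p = 0.0087). The groups did not overlap, but columns within a condition differed almost as much as the conditions did. The call was lost without mock replicate 1 or without siRNA replicate 2, and the change then ran as low as 0.30. Its half-life had the lowest change of the same genes, -0.17, with 268 and 268 min in siRNA and 216 and 322 min in mock. The helicase cofactor EIF4B had no call in any measure.

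EIF4A3, the helicase that anchors the exon junction complex on spliced mRNA and not a cap-binding factor, rose in all 3 fractions. Total EIF4A3 RNA was 80.2 and 82.5 in siRNA, against 70.3 and 73.8 in mock (log2 change 0.19, limma, Benjamini-Hochberg adjusted p = 0.0377). Labelled EIF4A3 RNA was 95.0 and 94.6 in siRNA, against 67.5 and 62.5 in mock (log2 change 0.40, limma, Benjamini-Hochberg adjusted p = 0.00527). Flow-through EIF4A3 RNA was 133 and 135 in siRNA, against 105 and 103 in mock (log2 change 0.38, limma, Benjamini-Hochberg adjusted p = 0.000462). No pair of groups overlapped, while its half-life had no call, with 431 and 571 min in siRNA and 407 and 445 min in mock (0.03).

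Among the elongation factors, EEF1A2, the form of EEF1A known from neurons and muscle, was lower in all 3 fractions, and no elongation factor had a call in half-life. Total EEF1A2 RNA was 21.3 and 21.0 in siRNA, against 26.1 and 34.3 in mock (log2 change -0.46, limma, Benjamini-Hochberg adjusted p = 0.00223). Labelled EEF1A2 RNA was 4.27 and 3.62 in siRNA, against 6.03 and 5.28 in mock (log2 change -0.57, limma, Benjamini-Hochberg adjusted p = 0.00377). Flow-through EEF1A2 RNA was 29.4 and 30.9 in siRNA, against 53.3 and 50.9 in mock (log2 change -0.75, limma, Benjamini-Hochberg adjusted p = 0.000203). No groups overlapped in these fractions, whereas the half-life was 1799 and 2857 min in siRNA and 1932 and 2164 min in mock (-0.05). EEF1A1, its ubiquitous relative, rose in the flow-through (0.37), with 13502 and 14763 in siRNA and 10596 and 11492 in mock. Its total RNA was 8307 and 8492 in siRNA and 7674 and 8356 in mock without a call, and after quantile normalisation its flow-through call was lost. EEF1A1, EEF1A2 and the processed pseudogenes of EEF1A1 share sequence, so their reads may have been split between them.

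EEF1B2, which reloads EEF1A with GTP, rose in labelled RNA (0.40) and in the flow-through (0.49). Its flow-through values were 1344 and 1321 in siRNA, against 970 and 950 in mock, and the labelled call was lost without mock replicate 2 (limma, Benjamini-Hochberg adjusted p = 0.162). It also had the highest half-life change of the EEF1 complex, 0.15, with 1347 and 1823 min in siRNA and 1113 and 1363 min in mock. The lowest was EEF1D, the other exchange subunit, with 2629 and 3636 min in siRNA and 2670 and 3008 min in mock (-0.07). EEF1G, the structural subunit, rose in labelled RNA (0.32) and in the flow-through (0.25), and its labelled call was lost without either mock column (limma, Benjamini-Hochberg adjusted p up to 0.323). After quantile normalisation its flow-through change was 0.09 and no longer passed the threshold. EEF1E1 had no call in any measure. EEF2, the translocase, and EIF5A, the hypusine-bearing factor that eases peptide bond formation at difficult stretches, had none either. Total EEF2 RNA was 1358 and 1384 in siRNA and 1246 and 1494 in mock, and total EIF5A RNA was 756 and 757 in siRNA and 727 and 823 in mock.

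Annotated 5' starts are shown because TOP sequences mark many of these genes. RefSeq gave a promoter window (GRCh38.p14) for 37 of the 47 members, from 250 bases before to 50 bases after the start. Members without a window, among them EIF3CL, EIF3E, EIF3G and EIF3H, were not examined for such a start. A start was counted where its first base is C and the next 4 are each C or T, on the gene's own strand. That held for 8 of the 33 members past the minimum with a window (24.2%), for 267 of 4622 such genes in all (5.78%), and for 1104 of the table's 27305 windows (4.04%). The lines give 5 bases before and 15 from the annotated start, with the pyrimidine run from the start in capitals.
EIF2S3 (chrX:24054951-24054970, plus strand): ccttcCTCTTTTggcaacat
EIF3D (chr22:36529152-36529171, minus strand): gtttcCTCTTTTCCTggttt
EIF3F (chr11:7987332-7987351, plus strand): gcctcCTTCTTTCTCgacaa
EIF3K (chr19:38619183-38619202, plus strand): accacCTCTTCCTgttcccg
EIF3M (chr11:32583826-32583845, plus strand): gttccCTTTTCCggtcggcg
EIF4B (chr12:53006451-53006470, plus strand): cgggtCTTTTgcgttctctt
EEF1A1 (chr6:73521018-73521037, minus strand): acgttCTTTTTCgcaacggg
EEF2 (chr19:3985449-3985468, minus strand): gcgttCTCTTCCgccgtcgt

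None of these 8 had a call in half-life, total or labelled RNA, and 5 of them rose in the flow-through (EIF2S3, EIF3D, EIF3K, EIF3M and EEF1A1). Quantile normalisation ended the calls of EIF3K and EEF1A1. Of the 25 other members with a window, 10 rose in the flow-through and 5 fell. Over all genes, 35.2% of those with such a start and 32.9% of those without rose in the flow-through. An annotated start is not a measured one, and absence of a run says only that these letters are not at that position.

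The members below the expression minimum entered the test without a minimum, in which EIF4E3 was the one of the 4 with calls. EIF4E3 alone of them also entered the test with a minimum of 5 over all 4 total columns, which held 44 members. Cap-binding EIF4E3 had total RNA values of 4.59 and 4.26 in siRNA, against 6.45 and 5.91 in mock, and labelled values of 1.35 and 1.39 in siRNA, against 2.56 and 2.01 in mock. These labelled values are close to 1.00, the lowest expression value of any gene. In neither fraction did the groups overlap, and without the minimum EIF4E3 fell in total (-0.38), labelled (-0.59) and flow-through RNA (-0.37), with limma, Benjamini-Hochberg adjusted p of 0.0161, 0.00139 and 0.0102. Its half-lives were 1520 and 2345 min in siRNA and 1118 and 1522 min in mock, without a call (limma, Benjamini-Hochberg adjusted p = 0.206). The endoplasmic reticulum stress kinase EIF2AK3 (PERK) had total RNA values of 3.23 and 3.30 in siRNA and 3.70 and 3.79 in mock. EEF2K, the kinase that silences EEF2, had 3.94 and 4.20 in siRNA and 4.12 and 4.22 in mock. GSPT2, the second eRF3, did not share the pattern of GSPT1: its half-life was 125 and 146 min in siRNA and 101 and 148 min in mock, with total RNA at 5.54 and 4.62 in siRNA and 4.80 and 4.82 in mock. The Argonaute EIF2C2 was tested and had no call in half-life or total RNA, with half-lives of 553 and 988 min in siRNA and 642 and 604 min in mock.

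Of 37 further genes of the same pathway (among them regulators of EIF2 and EIF4E, mitochondrial factors and hypusine enzymes), 26 had a row and all 26 passed the minimum. In half-life 0 of them rose or fell by limma, with a median change of 0.04. In total RNA 3 rose and 3 fell, where 12.9% and 14.3% of all genes did. PDCD4, an inhibitor of the helicase EIF4A, had 44.6 and 39.9 in siRNA, against 29.8 and 30.2 in mock (log2 change 0.50, limma, Benjamini-Hochberg adjusted p = 0.00028). PPP1R15A (GADD34), the stress-induced subunit that directs dephosphorylation of EIF2 alpha, had 34.5 and 35.5 in siRNA, against 50.7 and 53.4 in mock (log2 change -0.54, limma, Benjamini-Hochberg adjusted p = 7.25e-05). Neither gene's groups overlapped. PPP1R15B, the constitutive subunit for the same reaction, rose (0.24), as did IMPACT (0.25), an inhibitor of GCN2 activation. The ribosome rescue factor HBS1L (-0.20) and DHPS (-0.27), which starts the hypusine modification of EIF5A, fell. In labelled RNA 4 rose and 3 fell, where 9.88% and 11.5% of all genes did. In the flow-through 12 rose and 6 fell, where 31.7% and 26.8% of all genes did.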

How the data were processed

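The members and gene lists were chosen with earlier results of these data known. Per the labels' protocols, poly(A)+ TruSeq libraries were sequenced for 100 cycles, and the submitters' processing notes name TopHat2 2.06 and hg18. The quantification tool is not named in either. The authors deposited 12 columns of a normalised expression signal and 4 columns of half-lives, computed by a published method per the labels' protocols. For the half-lives, the other deposited quantity, the header names no unit. It was settled as minutes by recomputation from the 3 fractions, weighted by total least squares, as first-order decay during the 60 min label (Pearson r of log2 values over genes 0.968 to 0.983). GEO lists 6 samples while the header gives replicates 1 and 2 of each. Every value is at least 1.00, so depth is unknown and no counting interval is given.

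Genes whose total RNA averaged at least 5 in both conditions were tested with limma 3.58.1 (R 4.3.3) on log2(value + 1) or log2 half-life, with columns centred on the median gene, moderated variances with a mean-variance trend, and Benjamini-Hochberg adjustment over 6064 genes at 0.05. A fold change on this scale understates the change of low genes. All members are accounted for. Column values are given for members past the threshold in half-life or total RNA and, in each complex with at least 3 members past the minimum, for the highest and lowest half-life change. Alternatives changed the pseudocount, minimum, centring, trend, normalisation, half-life source, replicate block and columns. Leaving out a column leaves 1 in its group, which is then assumed to vary like the other group. The flow-through over total ratio and the half-life trend on total RNA level were added after seeing the data. Sequences came from GENCODE v29 and RefSeq with Python 3.11.15 and pandas 2.3.3.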

Additional observations from a re-analysis of the deposited data

How the results depend on the processing

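Half-life calls of EIF6 and GSPT1 passed under every alternative run except no centring, where the count of members lower in half-life was 0 against 3. Leaving out 1 column gave 2 lower members each time. Members higher in half-life numbered 1, EIF4E, at a minimum of 20, in recomputed half-lives and with the trend on total RNA level, and 0 when 1 column was left out. In total RNA, no centring gave 2 higher members against 7, and leaving out 1 column gave 1 (without siRNA replicate 1) to 9, with 2 without siRNA replicate 2 and 4 without mock replicate 2. Lower members in total RNA ranged from 4 to 7. EIF4 factors higher in total RNA numbered 1 without centring and 3 without a trend, and 1 to 4 when 1 column was left out. In labelled RNA, no centring gave 20 higher and 1 lower, against 4 and 4. Leaving out 1 column gave 3 to 6 higher and 1 (without mock replicate 1) to 3 lower. In the flow-through the same omissions gave 17 to 18 higher, 6 to 7 lower and 5 to 7 EIF3 subunits higher. The ratio of flow-through to total RNA gave 0 higher members without centring and under quantile normalisation, 2 with no minimum and 2 with no trend, 0 to 1 when 1 column was left out, and 1 lower at a minimum of 20. Labelled EIF1 RNA turned from 0.03 to -0.15 and was called lower under quantile normalisation. Of the 172 member changes in half-life and the 3 fractions, 9 changed sign under that setting, among them labelled EEF2 (0.05 and then -0.15), labelled EIF5A (0.01 and then -0.09) and total EIF5A (-0.01 and then 0.11), which had no call either way. Without centring 21 changed sign, none of them called then. With the calls of the flow-through over total ratio counted too, 15 of the 52 calls were lost without centring. The cause of these changes was not tested.

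Deviations of same-numbered siRNA and mock columns from their group means were nearly uncorrelated over genes (correlations between -0.07 and 0.11). Centring removes any shift of a whole column, so this cannot show whether columns sharing a number were made together. With that number as a replicate block, 9 members were higher in labelled RNA against 4, 10 against 7 in total RNA, and 2 against 3 lower in half-life, EIF5 being the call lost.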
